A study of Mus musculus with 6 samples.

Results

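Chemokines are small secreted proteins that guide leukocytes along a gradient, and the 10 genes described here encode CC and CXC chemokines made by myeloid cells. They were taken by symbol from a table of 24062 genes: Ccl2, Ccl3, Ccl4, Ccl5, Ccl6, Ccl9, Ccl22, Cxcl2, Cxcl10 and Cxcl16. Bulk RNA sequencing compared 3 libraries labelled A20 KO with 3 labelled A20 WT, to ask what loss of A20, the ubiquitin-editing protein encoded by Tnfaip3, does in a mouse model of acute myeloid leukemia. The KO-labelled cells came from A20 f/f mice and the WT-labelled cells from A20 +/+ mice. Donors of both groups also carried Rosa Cre-ER, a recombinase that works once tamoxifen is present. Lineage-negative hematopoietic cells of both genotypes had been made leukemic with a retrovirus that delivers the fusion oncogene MLL-AF9. They were grown with 10 ng/mL each of human IL-6, mouse IL-3 and mouse SCF, and both groups received 1 µM 4-hydroxytamoxifen for 48 h. The labels do not say whether the replicates of a group were separate cultures, animals or clones, nor give the age of the donors, so p-values reflect only how these libraries vary, which may be technical.

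CC and CXC chemokines act through receptors coupled to Gi proteins. Ccl3, Ccl4 and Ccl5 attract monocytes, T cells and NK cells, and Ccl2 recruits inflammatory monocytes through Ccr2. Cxcl2 draws neutrophils through Cxcr2, and Cxcl10 draws activated T cells through Cxcr3. In macrophages several of these genes are classical targets of NF-κB, the transcription factor that A20 restrains, and Cxcl10 is also induced by interferons.

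Promoter sequence was available for 6 of the 10 genes, from RefSeq on GRCm38.p6. The 5 shown are those of the genes tested for a difference, each 250 bases long and ending just before the RefSeq start of transcription, written 5′ to 3′ on the strand of the gene. Capitals mark matches on either strand to the κB consensus, the interferon-response core (GAAA, any 2 bases, GAAA), the AP-1 motif TGANTCA or the TATA box TATAAA. The windows are chr5:90903649-90903898 on the plus strand for Cxcl2 and, on the minus strand, chr5:92348890-92349139 for Cxcl10, chr11:83649379-83649628 for Ccl3, chr11:83578637-83578886 for Ccl9 and chr11:83593088-83593337 for Ccl6.
Cxcl2: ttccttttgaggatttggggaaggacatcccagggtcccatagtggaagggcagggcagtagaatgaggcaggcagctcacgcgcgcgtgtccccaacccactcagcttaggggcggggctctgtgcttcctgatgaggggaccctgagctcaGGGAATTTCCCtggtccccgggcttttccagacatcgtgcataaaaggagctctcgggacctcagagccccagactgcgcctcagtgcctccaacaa
Cxcl10: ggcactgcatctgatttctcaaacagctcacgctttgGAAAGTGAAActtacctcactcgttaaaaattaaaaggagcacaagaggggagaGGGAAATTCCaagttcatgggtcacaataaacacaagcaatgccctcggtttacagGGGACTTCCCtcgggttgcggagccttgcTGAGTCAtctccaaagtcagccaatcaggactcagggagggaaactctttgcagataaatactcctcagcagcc
Ccl3: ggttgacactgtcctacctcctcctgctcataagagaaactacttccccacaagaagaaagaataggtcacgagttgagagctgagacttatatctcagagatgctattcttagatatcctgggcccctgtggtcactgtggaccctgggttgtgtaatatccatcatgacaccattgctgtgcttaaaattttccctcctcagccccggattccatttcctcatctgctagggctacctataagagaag
Ccl9: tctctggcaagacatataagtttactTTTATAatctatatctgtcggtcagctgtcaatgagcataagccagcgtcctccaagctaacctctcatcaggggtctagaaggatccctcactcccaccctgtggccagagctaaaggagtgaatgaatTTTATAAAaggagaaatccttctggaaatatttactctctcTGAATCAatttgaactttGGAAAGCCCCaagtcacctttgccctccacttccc
Ccl6: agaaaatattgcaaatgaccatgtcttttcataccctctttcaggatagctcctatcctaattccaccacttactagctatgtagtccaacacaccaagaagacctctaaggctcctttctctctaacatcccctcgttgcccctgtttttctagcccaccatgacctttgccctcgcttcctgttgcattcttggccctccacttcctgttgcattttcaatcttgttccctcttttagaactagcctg

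Cxcl2 held 2 overlapping κB matches, which began 97 and 96 bases before the start and together make its single capitalised stretch. In Cxcl10 there were 2 separate κB matches, at 159 and 103 bases, an interferon-response core at 213 bases and an AP-1 match at 74 bases before the start. Ccl9 held 1 κB match at 35 bases, an AP-1 match at 53 bases and 3 TATA matches, of which those at 94 and 92 bases overlap. None of the 4 motifs was found in the windows of Ccl3, Ccl6 or Ccl22, the sixth gene with a promoter. Among 32851 promoters of the same length the κB consensus was present in 3.90%, the interferon-response core in 2.98%, the AP-1 motif in 6.75% and the TATA box in 12.4%. A match describes letters only, and no binding was measured.

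The libraries held 16113320 to 24168326 counted reads in the KO-labelled group and 17095581 to 25415274 in the WT-labelled group. Tnfaip3, the targeted gene, went against its label, with 100.1, 74.1 and 79.1 CPM (read counts per library size, scaled by the TMM method) in the KO-labelled libraries and 7.39, 8.67 and 8.24 CPM in WT-labelled libraries. This was a log2 fold change of 3.38 (SE 0.17, adjusted p = 4.71e-05 by edgeR), so the groups are called by their labels below. The counts take in every exon of the gene and do not measure the deletion. Y-linked Ddx3y had 78.5 to 89.2 CPM in the KO-labelled and at most 0.804 CPM in WT-labelled libraries, so donor sex and label changed together and cannot be told apart. Replicate 1 stood apart in both groups: between libraries of one group, chi-square per degree of freedom over genes was 94.5 and 79.7 for KO-labelled replicate 1 against replicates 2 and 3, and 2.37 between those 2. The same values were 205 and 231 for WT-labelled replicate 1, and 25.2 between WT-labelled replicates 2 and 3. Gapdh had 2716 CPM in KO-labelled replicate 1 and 2645 CPM in WT-labelled replicate 1, and 167 to 254 CPM in the other 4 libraries. Every one of 16 myeloid identity markers passed the filter, and 2 were called higher and 5 lower in the KO-labelled libraries. The other 9, Spi1, Cebpa and Itgam among them, were not called. Over all tested genes 13.7% were called higher and 13.7% lower, so some of these markers differed between the groups and others were not called. The progenitor marker Cd34 had 1.17 to 1.99 CPM in the KO-labelled and 597 to 632 CPM in the WT-labelled libraries, and myeloperoxidase (Mpo) 0.180 to 0.563 and 142 to 299 CPM in the same order. Kit, the SCF receptor, averaged 102 ± 1.36 CPM in the KO-labelled and 353 ± 48.0 CPM in the WT-labelled group, and Fcgr3, an Fc receptor of myeloid cells, 487 ± 83.3 and 81.8 ± 48.5 CPM in the same order (SD, n = 3 each). The part of these marker differences in the chemokine values was not tested. Cd3e and Cd8a (T cells), Ms4a1 (B cells) and Hbb-bs and Hba-a1 (red cells) had no read in any library. Other markers on these lists did have reads. Of those tested, Cd79b (B cells), Epor (red cells) and Lck (T cells) were called lower in the KO-labelled libraries. Cd4 (T cells) was called higher and Klf1 (red cells) was not called. In bulk RNA, fewer cells of a type and less RNA per cell cannot be told apart.

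**Figure D1:**
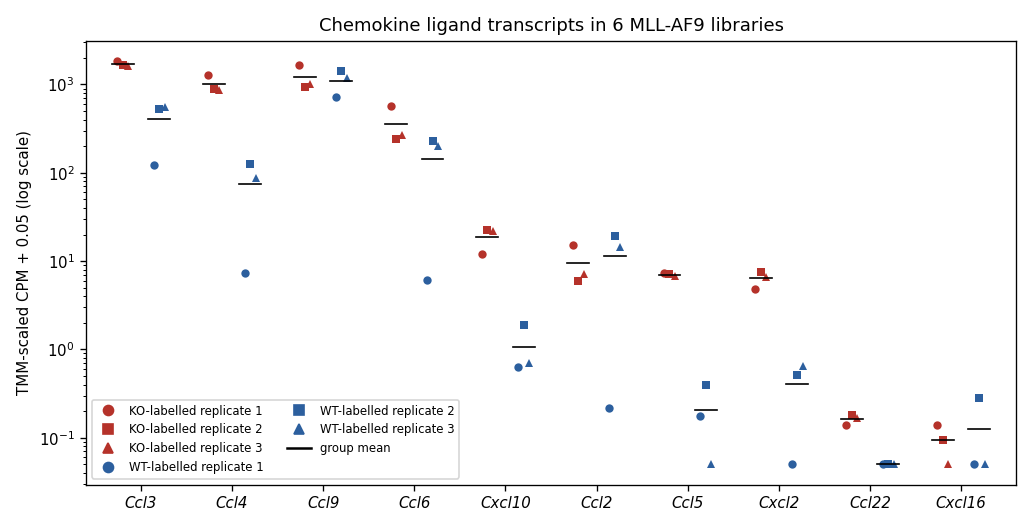
TMM-scaled CPM plus 0.05 (log scale) of the 10 chemokine genes in each library, KO-labelled points left of WT-labelled points and a black line at each group mean. All 3 KO-labelled points lie above all 3 WT-labelled points for Ccl3, Ccl4, Ccl5, Ccl6, Cxcl2, Cxcl10 and Ccl22, and WT-labelled replicate 1 lies far below replicates 2 and 3 for Ccl2, Ccl4 and Ccl6.

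Of the 10 genes, 8 passed the filter on low counts (0.482 CPM in at least 3 libraries), 5 were higher in the KO-labelled libraries and 0 were lower. The 5 were Ccl3, Ccl4, Ccl5, Cxcl2 and Cxcl10. Over all 12126 genes tested, 13.7% were called higher and 13.7% lower at an adjusted p under 0.05 by the quasi-likelihood test of edgeR, adjusted after Benjamini and Hochberg. The median log2 fold change was 2.92 over the 8 chemokines and -0.04 over all tested genes. In 6 of the 8 all KO-labelled libraries lay above all WT-labelled ones, and in 0 below, where the shares over all tested genes were 24.1% above and 23.5% below. Ccl5 passed the filter through the KO-labelled libraries alone, and Cxcl2 in 1 and Ccl2 in 2 of the WT-labelled libraries, so the counts over the 8 are a description.

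Ccl3 and Ccl4, the macrophage inflammatory proteins 1α and 1β, were, per kb of transcript, the most abundant of the genes called higher. Ccl3 had 1854, 1642 and 1616 CPM in KO-labelled libraries and 122, 532 and 559 CPM in WT-labelled libraries. The KO-labelled libraries were close to each other, and even the highest WT-labelled library was far below them. The means were 1704 ± 131 CPM and 405 ± 245 CPM (SD, n = 3 each), a log2 fold change of 2.07 (SE 0.53, adjusted p = 0.0263 by edgeR).

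Ccl4, encoded next to Ccl3, had 1285, 886 and 856 CPM in KO-labelled libraries. It had 7.22, 126 and 88.0 CPM in WT-labelled libraries. The groups did not overlap, and WT-labelled replicate 1 was far lower than the other WT-labelled libraries. Ccl4 averaged 1009 ± 239 CPM in the KO-labelled and 73.8 ± 60.8 CPM in the WT-labelled group (SD, n = 3 each), with a log2 fold change of 3.77 (SE 0.91, adjusted p = 0.0225 by edgeR). Per library, the CPM of Ccl4 was 0.693, 0.540 and 0.530 of that of Ccl3 in the KO-labelled libraries and 0.0591, 0.237 and 0.157 of it in the WT-labelled libraries. These ratios did not overlap between groups either.

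The calls of Ccl3 and Ccl4 depended on which libraries were in the fit. By edgeR, the adjusted p of Ccl3 was 0.0840, 0.0682 and 0.0646 without KO-labelled replicates 1, 2 and 3, and 2.79e-04, 0.0636 and 0.0525 without WT-labelled replicates 1, 2 and 3. That of Ccl4 was 0.0706, 0.0676 and 0.0604 without the KO-labelled and 1.87e-04, 0.0465 and 0.0744 without the WT-labelled replicates in the same order. Each gene stayed higher in the KO-labelled group in all 6 fits, with log2 fold changes of 1.65 to 2.38 for Ccl3 and 3.24 to 4.39 for Ccl4. Of the 8 genes, 3, 3 and 3 were called higher without KO-labelled replicates 1, 2 and 3, where 8.91%, 7.6% and 7.89% of all tested genes were. Without WT-labelled replicates 1, 2 and 3 the number was 5, 4 and 3, against 22%, 9.87% and 9.86% of all tested genes.

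Ccl5, known as RANTES and made chiefly by T cells, NK cells and activated macrophages, was scarce and had the largest fold change of the 8 tested genes. It had 161, 162 and 113 reads in the KO-labelled libraries and 3, 6 and 0 reads in the WT-labelled libraries. These are 7.25, 7.01 and 6.74 CPM in the KO-labelled and 0.125, 0.344 and 0 CPM in WT-labelled libraries. The KO-labelled libraries were nearly equal, and the WT-labelled ones were at or near the detection floor of 3 reads (0.125 to 0.172 CPM). The means of 7.004 ± 0.255 and 0.157 ± 0.174 CPM (SD, n = 3 each) stood in a ratio of 44.7, with a 95% interval from the summed reads of 25.1 to 106 that covers counting error only. Its log2 fold change came to 5.49 (SE 0.72, adjusted p = 0.0020 by edgeR), and it passed in all 19 alternative settings (adjusted p at most 0.0173).

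Of 10 T and NK cell markers, Cd3e, Cd8a, Cd2, Ncr1 and Gzma had no read in any library. Their list summed to 4.89 to 7.98 CPM in the KO-labelled and 7.58 to 13.5 CPM in WT-labelled libraries, mostly from Lck and Cd4, the 2 markers tested. Cd4 was called higher, with 4.64, 0.649 and 0.657 CPM in KO-labelled libraries and 0, 0.115 and 0 CPM in WT-labelled libraries. Lck was called lower, with 3.20, 4.46 and 4.06 CPM in KO-labelled libraries and 13.0, 7.06 and 7.30 CPM in WT-labelled libraries. The part of such cells in the Ccl5 reads was not tested.

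Cxcl10, an interferon-inducible ligand of Cxcr3, had 12.0, 22.3 and 22.0 CPM in KO-labelled libraries and 0.584, 1.84 and 0.645 CPM in WT-labelled libraries. The lowest KO-labelled library, replicate 1, was still above every WT-labelled one. It averaged 18.8 ± 5.86 CPM in the KO-labelled and 1.02 ± 0.706 CPM in the WT-labelled group (SD, n = 3 each), with a log2 fold change of 4.22 (SE 0.52, adjusted p = 0.0015 by edgeR). Like Ccl5 it passed in all 19 alternatives (adjusted p at most 0.0164). Cxcl10 overlaps Art3 on the opposite strand, and the strand setting of the authors' counting is not given in the sources used here, so reads of the 2 genes may not be separate.

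Cxcl2, macrophage inflammatory protein 2 and a ligand of the neutrophil receptor Cxcr2, had 4.82, 7.53 and 6.62 CPM in KO-labelled libraries. It had 0, 0.459 and 0.596 CPM in WT-labelled libraries, from 0, 8 and 12 reads. Every WT-labelled library was far below the lowest KO-labelled one. The means were 6.33 ± 1.38 and 0.352 ± 0.312 CPM (SD, n = 3 each), for a log2 fold change of 4.19 (SE 0.85, adjusted p = 0.0110 by edgeR). Its call held without any single library (adjusted p 4.48e-04 to 0.0473) and was lost when replicates 2 and 3 were summed into 1 sample in each group (adjusted p = 0.114). In that setting 2 of the 8 genes, Ccl5 and Cxcl10, were called higher, where 4.32% of all tested genes were.

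Ccl6 and Ccl9, rodent chemokines of the Ccr1 group that myeloid cells make in large amounts, were not called. Ccl9 had 1668, 928 and 1018 CPM in KO-labelled libraries and 722, 1424 and 1171 CPM in WT-labelled libraries, so the groups overlapped. The means of 1205 ± 404 and 1106 ± 355 CPM (SD, n = 3 each) gave a log2 fold change of 0.12 (SE 0.33, adjusted p = 0.821 by edgeR).

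Ccl6 had 575, 240 and 268 CPM in KO-labelled libraries and 6.01, 226 and 201 CPM in WT-labelled libraries. KO-labelled replicate 1 was the highest and WT-labelled replicate 1 by far the lowest, while the other 4 libraries lay between 201 and 268 CPM. The means were 361 ± 186 and 144 ± 121 CPM (SD, n = 3 each), with a log2 fold change of 1.32 (SE 1.04, adjusted p = 0.395 by edgeR). Ccl6 overlaps E230016K23Rik on the opposite strand, whose reads may not be separate from its own.

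Ccl2, the monocyte chemoattractant protein, showed a similar split by replicate. It had 15.4, 5.89 and 7.04 CPM in KO-labelled libraries and 0.167, 19.1 and 14.5 CPM in WT-labelled libraries. In replicate 1 the KO-labelled library was higher, and in replicates 2 and 3 both KO-labelled libraries were lower than both WT-labelled libraries. Over all 6 libraries the means of 9.43 ± 5.17 and 11.3 ± 9.88 CPM (SD, n = 3 each) did not differ beyond their spread (log2 fold change -0.25, SE 1.13, adjusted p = 0.899 by edgeR). Ccl2 overlaps Gm17268 on the opposite strand.

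Ccl22, which attracts Ccr4-bearing T cells and is typical of dendritic cells, had 2, 3 and 2 reads in the KO-labelled libraries and 0 in each WT-labelled library. Cxcl16, a membrane-bound ligand of Cxcr6, had 2, 1 and 0 reads in the KO-labelled and 0, 4 and 0 reads in the WT-labelled libraries. Neither passed the filter and no fold is given. Without a filter the adjusted p was 0.112 for Ccl22 and 0.858 for Cxcl16 by edgeR. Ccl22 had more reads in every KO-labelled library than in any WT-labelled one, but too few for a call, while the reads of Cxcl16 overlapped between groups. Of 10 dendritic cell markers Cd209a and Siglech had no read in any library, and of 4 tested H2-Ab1 was higher and Flt3 lower in the KO-labelled libraries. The list summed to 177 to 434 CPM in the KO-labelled and 28.5 to 134 CPM in the WT-labelled libraries. Cd74, which was not called, made up most of the sum in every library except WT-labelled replicate 1. It had 169 to 408 CPM in the KO-labelled and 4.92 to 90.3 CPM in the WT-labelled libraries. In WT-labelled replicate 1, Flt3 had 20.1 CPM and Cd74 4.92 CPM of the 28.5 CPM. The part of such cells in the Ccl22 reads was not tested.

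Replicate 1 and replicates 2 and 3 gave different sizes of difference. The shared number was not taken to pair the libraries, since deviations from the group means correlated at -0.006 between the replicate 1 libraries. Each replicate 1 ratio therefore sets 1 library that stood apart in its group against another that did. In replicate 1 the ratio of the KO-labelled to the WT-labelled library was 178 for Ccl4, 95.8 for Ccl6, 92.1 for Ccl2, 15.2 for Ccl3 and 2.31 for Ccl9. In the mean of replicates 2 and 3 the ratio was 8.13 for Ccl4, 1.19 for Ccl6, 0.385 for Ccl2, 2.98 for Ccl3 and 0.750 for Ccl9. Cxcl10 had similar ratios of 20.5 in replicate 1 and 17.8 in replicates 2 and 3. For Cxcl2 the ratio was at least 38.5 in replicate 1, taking 3 reads as the floor in that WT-labelled library, and 13.4 in replicates 2 and 3.

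A fit with an interaction between the label and replicate 1 against the others, added after the values were seen, tested these differences. The log2 fold change of replicate 1 exceeded that of replicates 2 and 3 by 7.86 for Ccl2 (adjusted p = 3.04e-04 by edgeR), 6.33 for Ccl6 (4.06e-05), 4.45 for Ccl4 (4.19e-04), 2.35 for Ccl3 (2.39e-04) and 1.62 for Ccl9 (0.0026). Cxcl2 also passed (adjusted p = 0.0226 by edgeR), without a size, since WT-labelled replicate 1 had no read of it. For Ccl5 and Cxcl10 the difference was 0.42 (adjusted p = 0.857 by edgeR) and 0.16 (0.891), which did not pass. The interaction was called in 33.3% of all tested genes in either direction. Replicate 1 is 1 library in each group, and the fit assumes that these vary as the other libraries do.

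Within replicates 2 and 3 alone, 5 of the 8 genes were called higher and 2 lower, where 25.8% of all tested genes were higher and 27.1% lower. Ccl3 (log2 fold change 1.56, SE 0.08), Ccl4 (3.01, SE 0.17), Ccl5 (5.35, SE 0.64), Cxcl2 (3.71, SE 0.30) and Cxcl10 (4.17, SE 0.34) were higher in the KO-labelled libraries, with adjusted p of 8.19e-04 or less by edgeR. Ccl2 fell by 1.40 on the log2 scale (SE 0.20, adjusted p = 0.0016) and Ccl9 fell by 0.43 (SE 0.12, adjusted p = 0.0220), both by edgeR. Ccl6 had a log2 fold change of 0.23 (SE 0.09, adjusted p = 0.0712 by edgeR) and was not called. These p-values rest on 2 libraries a group, and the KO-labelled pair was the closest of any within a group.

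**Figure D2:**
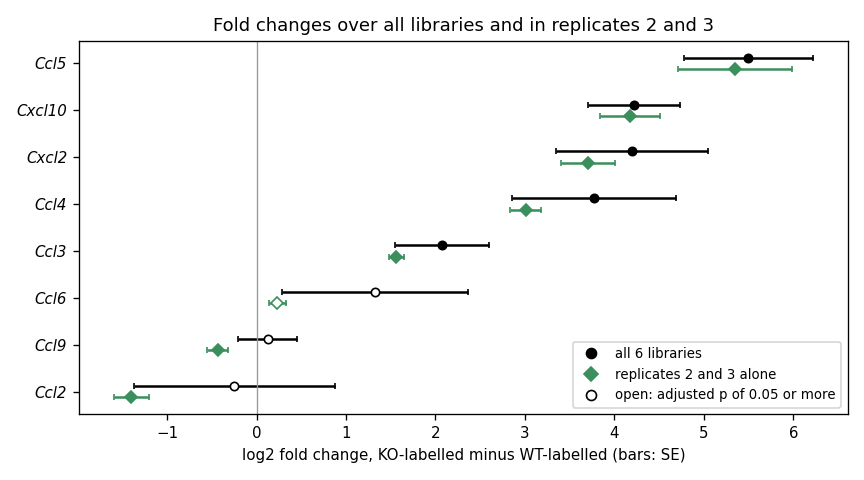
Log2 fold change, KO-labelled minus WT-labelled, of the 8 tested chemokine genes over all 6 libraries (circles) and in replicates 2 and 3 alone (diamonds). Bars are SE and open symbols did not pass an adjusted p of 0.05. Ccl5 and Cxcl10 are nearly the same in both, while Ccl2 and Ccl9 pass only in replicates 2 and 3, at -1.40 and -0.43.

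To compare levels between genes, CPM was divided by the length of the exons in kb. Per kb, Ccl3 led in the KO-labelled group with 2225 ± 171 CPM per kb, ahead of Ccl4 with 1529 ± 363, Ccl9 with 396 ± 133 and Ccl6 with 201 ± 104 (SD, n = 3). In the WT-labelled group the order was Ccl3 with 528 ± 320 CPM per kb, Ccl9 with 363 ± 117, Ccl4 with 112 ± 92.1 and Ccl6 with 80.5 ± 67.1 (SD, n = 3). Library ranges of Ccl9 and Ccl6 overlapped in the KO-labelled group, yet Ccl9 was above Ccl6 in each of the 3 libraries. In the WT-labelled group the ranges of Ccl4 and Ccl6 overlapped, with Ccl4 above Ccl6 in each library. The order of Ccl3 and Ccl9 changed between WT-labelled libraries, with Ccl9 above Ccl3 in replicate 1 and below it in replicates 2 and 3.

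Far below these 4 came Cxcl10 (8.33 ± 2.60 CPM per kb), Ccl2 (8.29 ± 4.54), Ccl5 (7.30 ± 0.266) and Cxcl2 (3.06 ± 0.667) in the KO-labelled group (SD, n = 3). The order of Cxcl10, Ccl2 and Ccl5 changed between libraries. In the WT-labelled group Ccl2 had 9.90 ± 8.68 CPM per kb, Cxcl10 0.454 ± 0.314, Cxcl2 0.170 ± 0.151 and Ccl5 0.163 ± 0.182 (SD, n = 3). The order of neighbours among these 4 genes changed between the WT-labelled libraries. Ccl22 and Cxcl16 stayed under 0.05 CPM per kb in the mean of either group.

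The makeup of the chemokine transcripts differed with the label. Summed over the 10 genes the level was 5266, 3951 and 3918 CPM per kb in the KO-labelled libraries and 411, 1498 and 1374 CPM per kb in the WT-labelled libraries. Ccl4 made up 37.0%, 34.0% and 33.1% of it in the KO-labelled libraries and 2.66%, 12.8% and 9.70% in the WT-labelled libraries. Ccl9 made up 10.4%, 7.71% and 8.53% in the KO-labelled libraries and 57.7%, 31.2% and 28.0% in the WT-labelled libraries. Neither share overlapped between groups. The share of Ccl3 did overlap, with 46.0%, 54.2% and 53.9% in the KO-labelled and 38.7%, 46.4% and 53.2% in the WT-labelled libraries. With 3 against 3 libraries, an exact permutation test cannot go below 0.1, so no test of the shares was made.

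**Figure D3:**
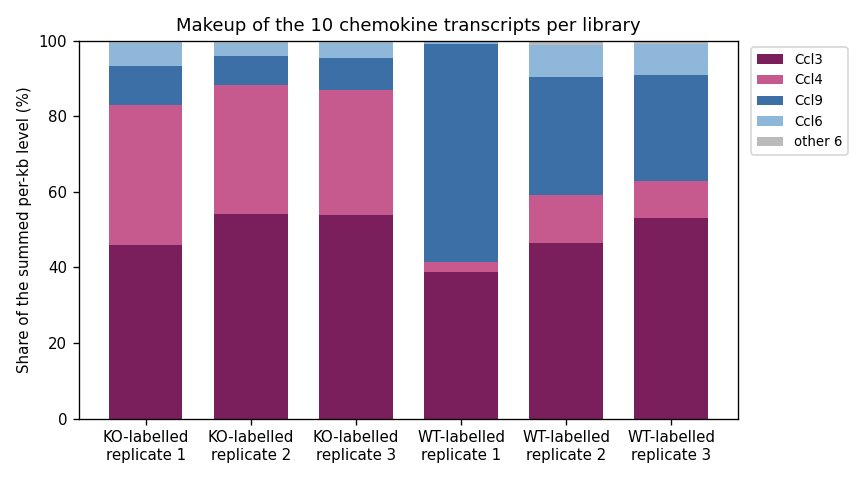
Share (%) of the summed CPM per kb of the 10 chemokine genes in each library, KO-labelled left and WT-labelled right. Ccl4 takes 33.1% to 37.0% in the KO-labelled libraries and 2.66% to 12.8% in the WT-labelled libraries, and Ccl9 takes 7.71% to 10.4% in the KO-labelled libraries and 28.0% to 57.7% in the WT-labelled libraries.

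Of the 10 genes, 7 lie on chromosome 11, and 5 of these within 138.906 kb (mm10, GENCODE M21). In order along the chromosome these are Ccl5 (chr11:83525778-83530518), Ccl9 (chr11:83572919-83578636), Ccl6 (chr11:83587882-83593087), Ccl3 (chr11:83647844-83649355) and Ccl4 (chr11:83662584-83664683). Ccl4 is on the plus strand and the others are on the minus strand. Ccl9 and Ccl6, which were not called, lie between Ccl5 on one side and Ccl3 and Ccl4 on the other, all called higher. The gap from Ccl5 to Ccl9 is 42.401 kb, that from Ccl9 to Ccl6 9.246 kb, that from Ccl6 to Ccl3 54.757 kb and that from Ccl3 to Ccl4 13.229 kb. Ccl2 (chr11:82035571-82037453, plus strand) and Cxcl16 (chr11:70453983-70459984, minus strand) lie on the same chromosome at lower coordinates than this cluster. Cxcl2 (chr5:90903871-90905938, plus strand) and Cxcl10 (chr5:92346638-92348889, minus strand) are on chromosome 5, and Ccl22 (chr8:94745590-94751699, plus strand) is on chromosome 8. No stretch of 31 bases in the transcripts of Ccl2, Ccl3, Ccl4 or Ccl22 was found in transcripts of another gene. For the others the share of such stretches was 0.539% in Ccl5, 1.02% in Ccl6, 3.98% in Ccl9, 4.47% in Cxcl10, 7.59% in Cxcl2 and 18.5% in Cxcl16.

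**Figure D4:**
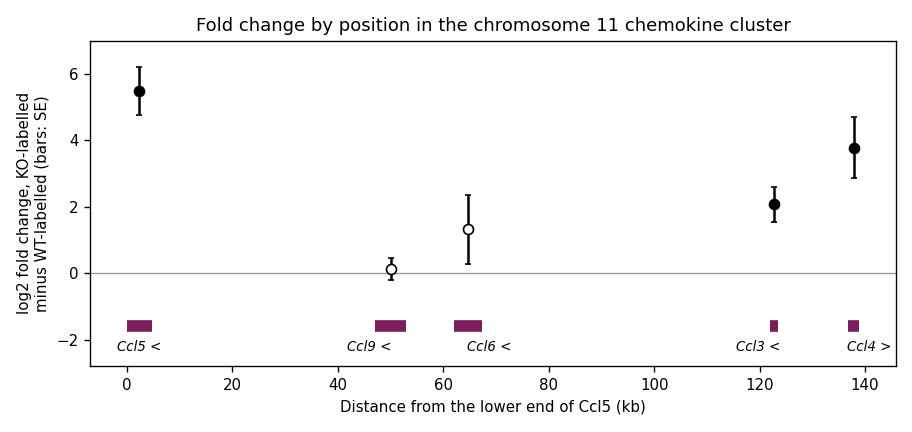
Log2 fold change, KO-labelled minus WT-labelled (SE bars), of the 5 chemokine genes of the chromosome 11 cluster against distance in kb from the lower end of Ccl5. Boxes show each gene to scale, arrows its strand and open circles genes that were not called; Ccl9 at 0.12 and Ccl6 at 1.32 lie between Ccl5 at 5.49 and Ccl3 at 2.07.

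Of 10 receptors that bind these ligands, 5 could be tested, with 0 higher and 1 lower in the KO-labelled libraries. The median log2 fold change of the 5 was -0.45, and 13.7% of all tested genes were called each way. Cxcr6, Ackr1 and Ackr2 had no read in any library, and Ccr3 and Cxcr3 had at most 0.477 CPM in any library. Ccr4, the receptor of Ccl22, had 0.225, 0.390 and 0.239 CPM in KO-labelled libraries and 1.75, 1.03 and 0.794 CPM in WT-labelled libraries. It was low in both groups and did not overlap between them (log2 fold change -2.04, SE 0.53, adjusted p = 0.0280 by edgeR). The call was lost when KO-labelled replicate 1, 2 or 3 was left out (adjusted p = 0.100, 0.0890 and 0.131 by edgeR) and when WT-labelled replicate 2 was (0.0581).

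Ccr1, the receptor of Ccl3, Ccl5, Ccl6 and Ccl9, had 251, 115 and 113 CPM in KO-labelled libraries and 5.55, 137 and 107 CPM in WT-labelled libraries. Ccr2, the receptor of Ccl2, had 693, 183 and 201 CPM in KO-labelled libraries and 27.1, 708 and 498 CPM in WT-labelled libraries. Both were lowest in WT-labelled replicate 1 and highest or nearly so in KO-labelled replicate 1, the same 2 libraries that were the extremes for Ccl6. Their log2 fold changes were 0.94 (SE 0.93, adjusted p = 0.505) for Ccr1 and -0.20 (SE 1.02, adjusted p = 0.914) for Ccr2 by edgeR. In replicates 2 and 3 alone Ccr2 fell by 1.67 on the log2 scale (SE 0.17, adjusted p = 3.86e-04 by edgeR).

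Cxcr2, the receptor of Cxcl2, had 5.18, 2.38 and 3.16 CPM in KO-labelled libraries and 7.68, 3.27 and 3.67 CPM in WT-labelled libraries, with overlap (log2 fold change -0.45, SE 0.45, adjusted p = 0.509 by edgeR).

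**Figure D5:**
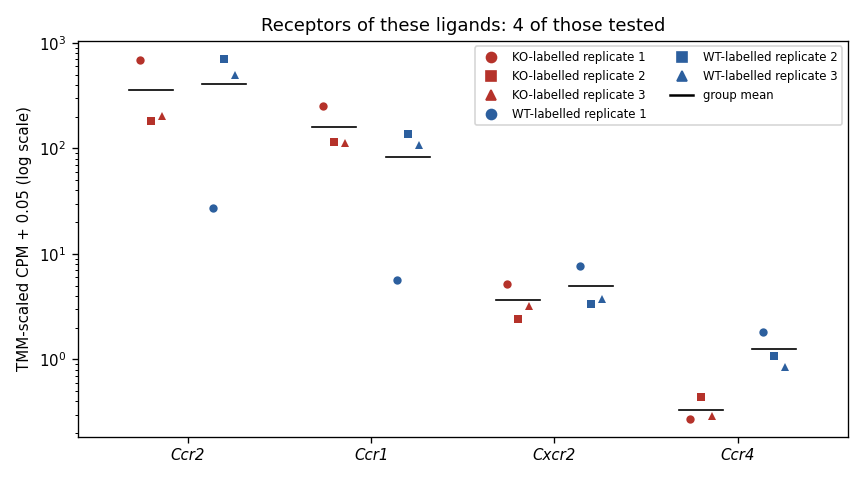
TMM-scaled CPM plus 0.05 (log scale) of 4 tested receptor genes in each library, KO-labelled points left of WT-labelled points and a black line at each group mean. WT-labelled replicate 1 is lowest for Ccr1 and Ccr2, at 5.55 and 27.1 CPM, and of the 4 only Ccr4 has every KO-labelled point below every WT-labelled point.

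Markers of macrophages did not move one way. Of 10 listed, 5 were tested, with 0 higher and 3 lower in the KO-labelled libraries, where 13.7% of all tested genes were called each way. Vsig4 had no read in any library. The 3 lower were Mertk, Mrc1 and Fcgr1, and each was highest in WT-labelled replicates 2 and 3. Mrc1, the mannose receptor, had 0.451, 0.0866 and 0.179 CPM in KO-labelled libraries and 1.21, 24.9 and 22.0 CPM in WT-labelled libraries. C1qb and C1qc did not pass the filter. They had 2 and 1 reads over the KO-labelled libraries and 259 and 147 reads over the WT-labelled libraries. Emr1, the F4/80 antigen, went the other way without being called, with 529, 189 and 187 CPM in KO-labelled libraries and 9.39, 77.8 and 72.1 CPM in WT-labelled libraries (adjusted p = 0.0578 by edgeR). Emr1 makes up most of the list's sum in the KO-labelled libraries, which was 612, 231 and 232 CPM. In WT-labelled libraries the sum was 51.7, 269 and 255 CPM, with Cd68 the largest part at 36.1, 127 and 129 CPM. Cd68 had 78.2, 39.8 and 42.4 CPM in KO-labelled libraries and was not called (log2 fold change -0.87, SE 0.50, adjusted p = 0.244 by edgeR). Csf1r, the receptor of the macrophage growth factor and a member of the myeloid identity list, was called higher in the KO-labelled libraries. It had 353, 134 and 134 CPM in KO-labelled libraries and 2.84, 36.2 and 35.3 CPM in WT-labelled libraries (log2 fold change 3.07, SE 0.89, adjusted p = 0.0429 by edgeR). Like Ccl6 and Ccr1, Emr1 and Csf1r were highest in KO-labelled replicate 1 and lowest in WT-labelled replicate 1. The part of these cells in the chemokine values was not tested.

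Other chemokine ligands were scarce. Of 27 listed, 11 had no read in any library and 5 were tested, with 1 higher and 2 lower in the KO-labelled libraries. The median log2 fold change of the 5 was -0.45, and 13.7% of all tested genes were called each way. Cx3cl1, the membrane-bound fractalkine, had 0.225, 0.0433 and 0 CPM in the KO-labelled and 3.09, 0.976 and 2.63 CPM in WT-labelled libraries (adjusted p = 0.0107 by edgeR; 0.0589 without KO-labelled replicate 2). Pf4, the platelet chemokine, averaged 0.114 ± 0.161 CPM in the KO-labelled and 1.25 ± 0.382 CPM in the WT-labelled group (SD, n = 3 each; adjusted p = 0.0300 by edgeR). Ccl27a averaged 1.11 ± 0.464 CPM in the KO-labelled and 0.315 ± 0.095 CPM in the WT-labelled group (SD, n = 3 each; adjusted p = 0.0476 by edgeR). The call of Pf4 was lost without KO-labelled replicates 1 or 2 or WT-labelled replicates 2 or 3 (adjusted p up to 0.121), and that of Ccl27a without replicates 2 or 3 of either group (up to 0.235) and with library-total scaling (0.0558).

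Of 11 NF-κB subunits and inhibitors, 5 were higher and 0 lower in the KO-labelled libraries, where 13.7% of all tested genes were called each way. The median log2 fold change of the list was 0.80. Nfkbia, the inhibitor IκBα, had 206, 207 and 192 CPM in KO-labelled libraries and 27.9, 45.0 and 46.4 CPM in WT-labelled libraries. Nfkb2, the p100 precursor, had 123, 109 and 116 CPM in KO-labelled libraries and 14.2, 28.5 and 25.1 CPM in WT-labelled libraries. As in Ccl3 and Ccl4, WT-labelled replicate 1 was the lowest library of both genes. The inhibitors Nfkbie and Nfkbib (log2 fold change 0.80, SE 0.12) and the subunit gene Relb (2.94, SE 0.48), the last named after its value was seen, made up the 5, with adjusted p up to 0.0047 by edgeR.

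Of 11 tested interferon regulators 2 were higher and 0 lower, where 13.7% of all tested genes were called each way. The median log2 fold change of the list was 0.21. The 2 were Irf5, an activator of inflammatory genes in macrophages, and Ifngr1, a chain of the interferon-γ receptor. Irf5 averaged 52.4 ± 10.1 CPM in the KO-labelled and 18.9 ± 6.24 CPM in the WT-labelled group, and Ifngr1 averaged 279 ± 13.8 and 175 ± 16.8 CPM in the same order (SD, n = 3 each; adjusted p = 0.0084 and 0.0085 by edgeR). Ifnb1, the interferon-β gene, had no read in any library.

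Of 14 genes of chemokine receptor signalling 4 were higher and 0 lower, where 13.7% of all tested genes were called each way. The median log2 fold change of the list was 0.04. The 4 were Arrb1 and Arrb2, the β-arrestins that desensitise receptors, Gnai3, a Gi subunit, and Rac2, a GTPase of leukocyte migration. Arrb1 had 110.0, 111 and 108 CPM in KO-labelled libraries and 26.3, 35.3 and 40.2 CPM in WT-labelled libraries (log2 fold change 1.69, SE 0.17, adjusted p = 6.61e-04 by edgeR). The other 3 had log2 fold changes of 0.77 to 0.90, with adjusted p up to 0.0103 by edgeR.

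Of 10 proteases that shed or trim chemokines, 3 were higher and 2 lower, where 13.7% of all tested genes were called each way. The median log2 fold change of the list was 0.09. Dpp4, which trims the amino end of chemokines such as Ccl22 and Cxcl10, had 10.8, 1.08 and 1.19 CPM in KO-labelled libraries and 0, 0.0574 and 0 CPM in WT-labelled libraries. Mmp2, another metalloprotease, was also called higher and is named after its value was seen. Mmp14, a membrane-bound metalloprotease, had 21.0, 3.42 and 4.24 CPM in the KO-labelled and 0, 0 and 0.496 CPM in WT-labelled libraries. Mmp8, neutrophil collagenase, fell to 16.7, 3.94 and 4.24 CPM in KO-labelled libraries, against 38.0, 467 and 388 CPM in WT-labelled libraries. Ctsg, cathepsin G of neutrophil granules, averaged 763 ± 160 CPM in the KO-labelled and 1502 ± 220 CPM in the WT-labelled group (SD, n = 3 each). Leaving out 1 library ended each of these 4 calls in at least 1 case: Dpp4 without WT-labelled replicate 2 or 3 (adjusted p up to 0.0638 by edgeR), Mmp14 without KO-labelled replicate 1 or WT-labelled replicate 2 (0.0665), Mmp8 without KO-labelled replicate 2 or 3 (0.0672) and Ctsg without KO-labelled replicate 2 or 3 or WT-labelled replicate 2 (0.0588).

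Of 9 factors that destabilise or protect cytokine mRNAs, 1 was higher and 1 lower, where 13.7% of all tested genes were called each way. The median log2 fold change of the list was -0.11. Zfp36l2, which promotes decay of mRNAs with AU-rich elements, had 227, 166 and 174 CPM in KO-labelled libraries and 469, 350 and 361 CPM in WT-labelled libraries (log2 fold change -1.06, SE 0.19, adjusted p = 0.0067 by edgeR). Zc3h12a, the endonuclease regnase, had 26.0, 27.4 and 28.6 CPM in KO-labelled libraries and 11.6, 16.2 and 21.0 CPM in WT-labelled libraries (adjusted p = 0.0452 by edgeR). Its call held in 8 of 19 alternatives: it was lost, among others, under RLE, upper-quartile and library-total scaling (adjusted p = 0.0513, 0.0592 and 0.0833 by edgeR) and without any 1 of the KO-labelled libraries or WT-labelled replicate 2 (up to 0.130).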

How the data were processed

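The deposited values are raw counts of reads per gene, 6 libraries in all, which the authors did not normalise. The submitters' processing notes name the build mm10, HISAT2 2.0.5, featureCounts 1.5.2 and FastQC 0.11.7; per the labels' protocols, libraries were made with a stranded TruSeq mRNA kit. Neither the annotation nor the strand setting is given in the sources used here. Counts were tested in R 4.3.3 with edgeR 4.0.16 (TMM, default low-count filter, robust quasi-likelihood test, 3 against 3 libraries, no covariate, Benjamini-Hochberg over 12126 genes, threshold 0.05). Means and SD are of TMM-scaled CPM, and 3 reads, used as the floor, equal 0.125 to 0.179 CPM. Alternatives used limma 3.58.1 (voom), DESeq2 1.42.0, other scalings and filters, replicates 2 and 3 alone or summed, a term for replicate 1, a block and each library left out; the scripts were tested on simulated data.

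The members and the 7 pathway lists and marker lists were chosen with earlier results of these data known. Of 182 listed symbols 181 were in the table, 2 by an older name. Named were all members, Tnfaip3, tested receptors (1 is not reported here) and, per pathway list, at most the 4 called genes of smallest p (or, where none was called, the 2 of highest level); Relb, Mmp2, Gapdh and the marker genes given with values or calls were named after their values were seen. The interaction fit was added after the values were seen. Exon lengths, positions and shared 31-base stretches came from GENCODE M21, motifs were matched exactly in RefSeq promoters (GRCm38.p6), and figures were drawn in Python 3.11.15 with matplotlib.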

Additional observations from a re-analysis of the deposited data

How the results depend on the processing

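Ccl5 and Cxcl10 stayed higher and called in all 19 alternatives. The number of chemokines called higher was 5 with other scalings, DESeq2, limma-voom, non-robust dispersion, a term for replicate 1 and replicates 2 and 3 alone. It was 4 without a low-count filter, 4 at 5 CPM or more in 3 libraries, where Cxcl2 was not tested, 3 with KO-labelled replicates 2 and 3 summed, 2 with replicates 2 and 3 summed in each group, and 3 to 5 without 1 library. The number called lower was 2 in replicates 2 and 3 alone and 0 otherwise. Without a low-count filter Ccl4 lost its call (adjusted p = 0.0670 by edgeR). Replicate numbers were not taken to pair the libraries, since the deviations of same-numbered libraries correlated at -0.006, -0.055 and 0.052 over all tested genes, although single genes such as Gapdh shifted together in replicate 1 of both groups. With the number as a block 3 chemokines were called higher. Of the genes of the 7 pathway lists, 16 were called higher, against 4 with replicates 2 and 3 summed in each group, and 6 were called lower, against 10 with DESeq2, 3 at 5 CPM or more in 3 libraries, 24 in replicates 2 and 3 alone, 0 with replicates 2 and 3 summed in each group, 3 with KO-labelled replicates 2 and 3 summed and 1 to 18 without 1 library. Fold changes that turned sign were those of genes not called over all 6 libraries. The log2 fold change of Ccl2 was 1.51 by limma-voom, 0.16 with the block, 0.13 with a term for replicate 1, 0.38 with replicates 2 and 3 summed in each group and -0.82 to 0.35 without 1 library. That of Ccl9 was -0.43 in replicates 2 and 3 alone and -0.18 to 0.34 without 1 library. Ccr1 had -0.11 in replicates 2 and 3 alone. Ccr2 had 0.40 by limma-voom, 0.53 with replicates 2 and 3 summed in each group, 0.11 with KO-labelled replicates 2 and 3 summed and -1.09 to 0.43 without 1 library, and Cxcr2 had -0.82 to 0.047 without 1 library. The cause was not tested. Depth limits Ccl22 and Cxcl16, with at most 4 reads in a library, and the WT-labelled level of Ccl5. With 3 libraries a group, label, donor sex and library set cannot be told apart.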
